A study of Bos taurus with 9 samples.

Results

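The 10 genes described here are nuclear genes whose proteins make, stabilise or degrade the transcripts of mitochondrial DNA (mtDNA), or copy the template itself. They are POLRMT, TFAM and TFB2M of transcription, LRPPRC, SLIRP and MTPAP of transcript stability, PNPT1 and SUPV3L1 of transcript decay, and POLG and TWNK of mtDNA replication. They were chosen by symbol and function, with the expression values of these libraries already known, and all 10 were found among the 17162 genes of the table. Their values are therefore given as a description. The number of them past the thresholds applied to all genes is stated beside the share of all genes. Under changed settings it is given again without that share. No test is used to support a statement on any of them.

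RNA was sequenced from BEND, bovine cells grown from the endometrium and labelled as primary epithelial cells of wild-type genotype. There were 9 libraries, 3 for each of 3 groups. CON cells were untreated, and GA cells received estradiol (E2) at 1 nM and progesterone (P4) at 100 nM. GB cells received the same hormones for 12 h and then interferon tau (IFNT), the type I interferon of the ruminant conceptus, at 100 ng/mL for a further 12 h. The cells came from uteri collected at an abattoir and had been passaged, and the sources used here do not say whether the 3 dishes of a group differ in donor, so the spread between libraries may be technical. The collection times of CON and GA are not given separately, so IFNT, time in culture and, for GB vs. GA, time with the hormones cannot be told apart.

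Mammalian mtDNA is transcribed from both strands into long RNAs by a single-subunit polymerase, POLRMT, which needs TFAM to bind and bend the promoter and TFB2M to open it. The long RNAs are cut into mRNAs, tRNAs and rRNAs. The mRNAs are bound by the LRPPRC and SLIRP complex and receive short poly(A) tails from MTPAP. The exoribonuclease PNPT1, also known as polynucleotide phosphorylase, and the helicase SUPV3L1 form the complex that degrades mitochondrial RNA. PNPT1 is in addition a long-known target of type I interferon. POLG, the catalytic subunit of the mtDNA polymerase, and TWNK, the replicative helicase, copy the genome that serves as template.

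MX2, an interferon-stimulated gene, was at most 0.14 FPKM (read fragments scaled for exon length and for the mapped reads of the library) in CON and GA and at least 752.98 FPKM in GB, as the treatment labels imply. The study stained the cells for the cytokeratin 18 protein, and those images were not analysed here. At the RNA level, the data of these libraries go against the epithelial label. Of 11 epithelial markers, including KRT18, KRT8 and CDH1, none exceeded 0.74 FPKM in any library, and their summed FPKM was between 1.29 and 2.04 in CON, between 1.61 and 1.93 in GA and between 1.80 and 2.58 in GB. All 11 stromal markers, including VIM and COL1A1, reached at least 143.81 FPKM in every library, with sums of 17832 to 18440 FPKM in CON and 17977 to 18401 FPKM in GA, and lower sums of 16075 to 16202 FPKM in GB. The cells are therefore called BEND, as labelled, with no cell type implied. The stromal markers did not move together. By limma with Benjamini-Hochberg adjustment, 6 of the 11 were lower in GB vs. CON and 1 was higher, and in GB vs. GA 7 were lower and 1 was higher. Of all tested genes, 17.3% were lower and 16.2% higher in GB vs. CON, and 19.2% and 9.87% in GB vs. GA. VIM, the most abundant, had a log2FC of -0.22 (SE 0.04, adjusted p = 0.00338 by limma) in GB vs. CON, and PDGFRA had 0.38 (SE 0.05, adjusted p = 0.000415 by limma). The sums of 5 endothelial markers were low but between 2.27 and 3.44 FPKM in GB, above the 1.57 to 1.79 FPKM of GA and overlapping the 1.68 to 2.45 FPKM of CON. CDH5 was higher in GB vs. GA, with a log2FC of 0.68 (SE 0.21, adjusted p = 0.0395 by limma). In GB vs. CON its log2FC was 0.34 (SE 0.21, adjusted p = 0.253 by limma). KDR, too low to be tested, was at 0.25 FPKM or more in GB and at most 0.11 FPKM elsewhere. VWF, TEK and PECAM1, also untested, were at most 0.40 FPKM in any library and overlapped between all groups. Among the epithelial markers, the untested MUC1 was at 0.33 FPKM or more in GB and at most 0.24 FPKM elsewhere. The sums of 5 immune markers lay between 20.8 and 26.9 FPKM and overlapped between the 3 groups. They were mostly CD14, at 16.7 to 23.3 FPKM, with CD68 at 3.13 to 4.43 FPKM. CSF1R was at most 0.60 FPKM, CD79B at most 0.19 FPKM and ITGAM at most 0.05 FPKM in any library. These marker differences went along with the results below, and their part in them was not tested.

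In untreated cells the 10 genes spanned a wide range of levels. In CON the order by mean FPKM, a scale per exon length, ran from SLIRP through LRPPRC, TFAM, TFB2M, POLG, SUPV3L1, PNPT1, POLRMT and MTPAP to TWNK. SLIRP averaged 551 ± 42.6 FPKM (SD, n = 3) and stood at percentile 97.5 of all genes in the table, while TWNK averaged 10.8 ± 1.47 FPKM and stood at percentile 51.9. PNPT1 held the seventh place, with 19.8 ± 2.19 FPKM and percentile 62.3. Neighbours whose CON libraries overlapped, and which were not separated beyond their spread, were TFAM with TFB2M, TFB2M with POLG, SUPV3L1 with PNPT1, POLRMT with MTPAP, and MTPAP with TWNK. GA had the same order. In GB the order changed, with PNPT1 in the second place between SLIRP and LRPPRC, and with POLRMT, TFB2M, SUPV3L1 and MTPAP overlapping one another in sequence.

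**Figure D1:**
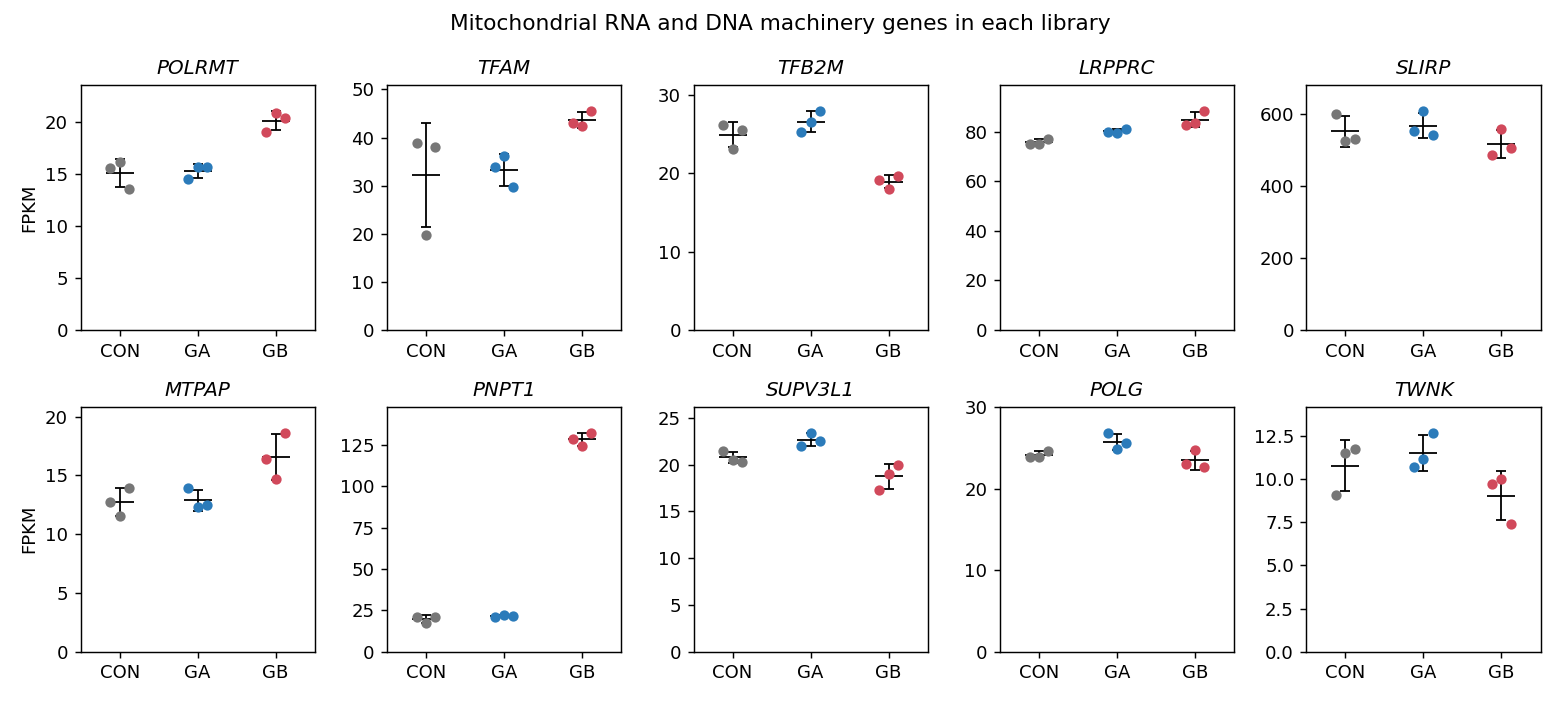
FPKM of each of the 10 genes in the 9 libraries, 1 panel a gene with its own vertical axis from 0; points are libraries of CON, GA and GB, and the bar and whiskers are the group mean ± SD (n = 3). PNPT1 is at 17.3 to 22.2 FPKM in CON and GA and at 124 FPKM or more in GB. POLRMT, TFAM, LRPPRC and MTPAP also have all GB points above the rest, TFB2M and SUPV3L1 have them below, and CON2 stands low for TFAM. The share of all tested genes that separate in this way was not taken, so nothing is read from how many do.

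Differences between groups were taken as log2FC on the scale log2(FPKM + 0.5), from a single limma fit across the 12578 genes with a mean of at least 0.5 FPKM. A differentially expressed gene (DEG) needed an adjusted p under 0.05 (Benjamini-Hochberg, over all tested genes) together with a |log2FC| above 1. By that rule 1 of the 10 genes, PNPT1, was a DEG in GB vs. CON, where 4.01% of all tested genes were, and PNPT1 was again the 1 DEG of the 10 in GB vs. GA, against 3.64% of all tested genes. By adjusted p alone, 4 of the 10 genes (PNPT1, POLRMT, MTPAP and LRPPRC) were higher in GB vs. CON (16.2% of all tested genes) and 1 (TFB2M) was lower (17.3%). In GB vs. GA, 3 of the 10 (PNPT1, POLRMT and MTPAP) were higher (9.87%) and 2 (TFB2M and SUPV3L1) were lower (19.2%). The 4 became 2 without GB3 and 3 without CON1, CON2 or GB1, while in GB vs. GA the 3 became 2 without GA2, GA3, GB1 or GB3 and the 2 became 1 without GA2. The median log2FC of the 10 genes was 0.06 in GB vs. CON, beside -0.02 for all tested genes, and -0.02 in GB vs. GA, beside -0.08. Nothing is read from these counts, since the list was drawn up with the values known. The GB libraries enter both comparisons, so the values stand side by side and are not separate observations.

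PNPT1 was the member with a |log2FC| above 1. Its FPKM was 21.2, 17.3 and 20.9 in the CON libraries, 20.9, 22.2 and 21.7 in the GA libraries and 129, 124 and 132 in the GB libraries. The GB libraries lay far above all others, and CON and GA overlapped. The log2FC was 2.67 (SE 0.08) in GB vs. CON and 2.54 (SE 0.08) in GB vs. GA, or folds of 6.37 and 5.83 on the same scale. The group means were 19.8 ± 2.19 in CON, 21.6 ± 0.65 in GA and 128 ± 3.85 FPKM in GB (SD, n = 3). In these bulk samples, a change in RNA per cell cannot be told apart from a change in the share of cells that express a gene. Among the 370 DEGs that were higher in GB vs. CON, PNPT1 held place 116 by log2FC and place 88 by CON level. In GB vs. GA it held place 120 of 335 by log2FC.

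SUPV3L1, the helicase partner of PNPT1, was not higher in GB. Its FPKM was 21.5, 20.55 and 20.3 in CON, 22.02, 23.4 and 22.6 in GA and 17.3, 19.0 and 19.95 in GB. Each GB library was below each CON and GA library, and each GA library was above each CON library. The log2FC was -0.15 (SE 0.06) in GB vs. CON and -0.27 (SE 0.06) in GB vs. GA. The latter was -0.24 without the second GA library and -0.19 under median-of-ratios scaling.

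Within each library, the ratio of PNPT1 to SUPV3L1 FPKM does not depend on how libraries are scaled. It was 0.987, 0.841 and 1.03 in CON and 0.950, 0.950 and 0.962 in GA. In GB it was 7.43, 6.54 and 6.62. The FPKM of both messages was thus close without IFNT, and PNPT1 exceeded its partner in every GB library, with a mean ratio of 6.86 ± 0.491 (SD, n = 3).

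Of the 3 transcription genes, POLRMT was higher and TFB2M lower in GB. POLRMT was at 15.6, 16.1 and 13.6 FPKM in CON, 14.5, 15.6 and 15.6 in GA and 19.0, 20.8 and 20.4 in GB. All GB libraries were above all others. The log2FC was 0.40 (SE 0.08) in GB vs. CON and 0.39 (SE 0.08) in GB vs. GA, while in GA vs. CON it was 0.02 (SE 0.08).

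TFB2M was at 26.1, 23.1 and 25.6 FPKM in CON, 25.3, 26.6 and 27.9 in GA and 19.2, 18.0 and 19.7 in GB. All GB libraries were below all others, with means of 18.9 ± 0.86 FPKM in GB, 25.0 ± 1.60 in CON and 26.6 ± 1.34 in GA (SD, n = 3). The log2FC was -0.39 (SE 0.07) in GB vs. CON and -0.48 (SE 0.07) in GB vs. GA. TFB1M, its paralog that methylates mitochondrial ribosomal RNA, had a log2FC of 0.00 (SE 0.18, adjusted p = 0.990 by limma with Benjamini-Hochberg adjustment) in GB vs. CON. The ratio of TFB2M to TFB1M within a library overlapped between the groups, at 1.79 ± 0.348 in CON, 1.73 ± 0.104 in GA and 1.36 ± 0.334 in GB (SD, n = 3).

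TFAM was at 38.8, 19.7 and 38.1 FPKM in CON, 34.0, 36.2 and 29.7 in GA and 43.0, 42.3 and 45.5 in GB. The GB libraries were above all others, but the second CON library lay far below the other two. The log2FC was 0.50 (SE 0.22) in GB vs. CON and 0.39 (SE 0.22) in GB vs. GA. Without the second CON library, the log2FC was 0.18 (SE 0.08) in GB vs. CON and 0.39 (SE 0.07) in GB vs. GA. The same library had the lowest ratio of TFAM to POLRMT, a ratio of 2.49, 1.22 and 2.81 in CON, 2.35, 2.32 and 1.90 in GA and 2.26, 2.03 and 2.23 in GB.

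In the stability group MTPAP and LRPPRC were higher in GB, and SLIRP overlapped between all groups. MTPAP, the poly(A) polymerase, was at 12.7, 11.5 and 13.95 FPKM in CON, 13.9, 12.3 and 12.5 in GA and 16.4, 14.7 and 18.6 in GB. Each GB library was above each other library. The log2FC was 0.37 (SE 0.10) in GB vs. CON and 0.35 (SE 0.10) in GB vs. GA. The GB libraries differed among themselves by more than those of CON or GA, and without GB3 these values were 0.28 and 0.26.

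LRPPRC was at 75.1, 75.1 and 77.05 FPKM in CON, 79.6, 79.6 and 81.0 in GA and 82.7, 83.6 and 88.2 in GB. The 3 groups did not overlap, with CON lowest and GB highest. The log2FC was 0.16 (SE 0.04) in GB vs. CON, 0.08 (SE 0.04) in GB vs. GA and 0.08 (SE 0.04) in GA vs. CON. Without the third GB library the log2FC in GB vs. CON was 0.13.

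SLIRP, the partner of LRPPRC, was at 600.3, 523 and 530.1 FPKM in CON, 551, 607 and 542 in GA and 485, 559 and 505 in GB. All groups overlapped, with a log2FC of -0.09 (SE 0.07) in GB vs. CON and -0.14 (SE 0.07) in GB vs. GA. The ratio of LRPPRC to SLIRP was 0.125, 0.144 and 0.145 in CON, 0.144, 0.131 and 0.149 in GA and 0.171, 0.150 and 0.175 in GB. The lowest GB ratio exceeded the highest of the other libraries by less than the spread within any group.

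The replication genes overlapped between GB and CON. POLG was at 23.9, 23.95 and 24.7 FPKM in CON, 26.9, 24.85 and 25.6 in GA and 23.0, 24.8 and 22.7 in GB, with a log2FC of -0.04 (SE 0.06) in GB vs. CON and -0.13 (SE 0.06) in GB vs. GA. The ratio of POLG to its accessory subunit gene POLG2 was 2.47 ± 0.342 in CON, 2.51 ± 0.409 in GA and 2.66 ± 0.106 in GB (SD, n = 3). TWNK was at 9.09, 11.55 and 11.7 FPKM in CON, 10.7, 11.2 and 12.7 in GA and 9.75, 10.0 and 7.41 in GB, with a log2FC of -0.24 (SE 0.14) in GB vs. CON and -0.34 (SE 0.14) in GB vs. GA. For both genes each GB library lay below each GA library.

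**Figure D2:**
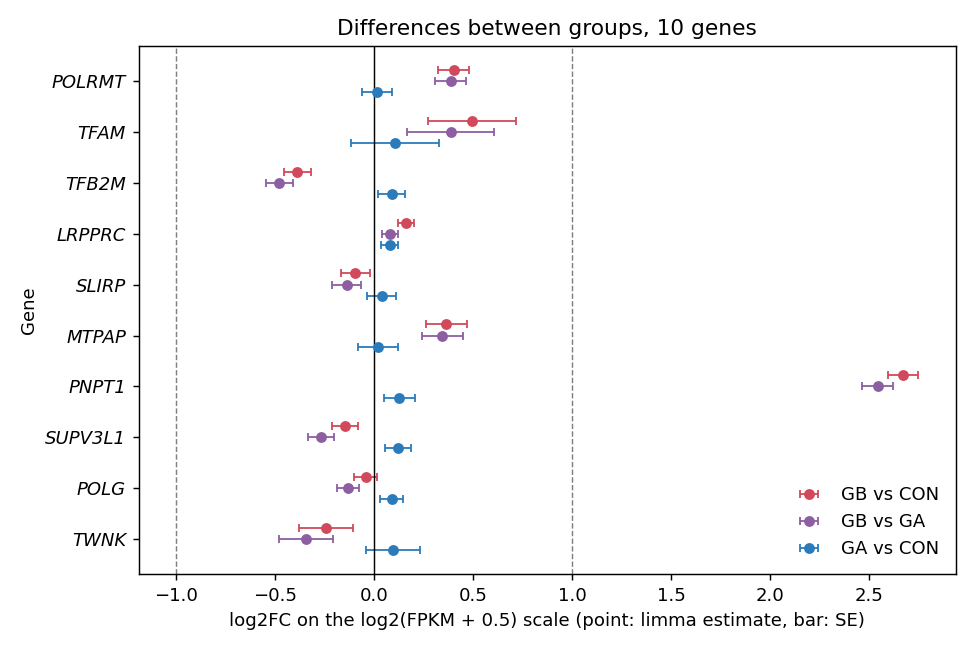
log2FC (on the log2(FPKM + 0.5) scale) of the 10 genes in GB vs. CON, GB vs. GA and GA vs. CON, with whiskers of ± 1 SE from the limma fit. PNPT1 stands at 2.67 and 2.54 in the comparisons with GB, and every other gene lies between -0.48 and 0.50.

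The GC content of the reads differed between the libraries and was higher in CON than in GA and GB. With it as a covariate in the fit, the log2FC in GB vs. CON was 2.40 for PNPT1, 0.47 (SE 0.15) for POLRMT, 0.16 for MTPAP, 0.10 for LRPPRC and -0.59 for TFB2M. That of TFAM turned to -0.30. The number of the 10 genes past the adjusted p in GB vs. CON was then 1 higher and 1 lower. POLRMT was no longer counted, although its log2FC without the covariate was smaller, at 0.40 (SE 0.08). The share of all tested genes past the adjusted p in that fit was not taken, so nothing is read from this count.

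In GA vs. CON, the comparison of the hormones without IFNT, 0 of the 10 were DEGs (0.0716% of all tested genes were), and by adjusted p alone 0 were higher (0.246%) and 0 lower (0.207%). At an unadjusted p under 0.05 in limma the count was also 0, with no share of all tested genes taken at that cut. All 10 log2FC were above 0, from 0.02 for POLRMT to 0.13 for PNPT1, with a median of 0.09 beside 0.06 for all tested genes. This common sign depended on the scaling, since 8 of the 10 were above 0 after rescaling to TPM, 7 with median-of-ratios factors and 8 after quantile normalization.

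The messages that these proteins make and degrade were lower in GB, with 13 of the 13 protein-coding mtDNA genes DEGs in both comparisons. The FPKM of the 13 genes summed to 26687, 24116 and 26895 in CON, 28189, 29034 and 29164 in GA and 5568, 5859 and 6079 in GB, so the GB mean was 22.5% of CON and 20.3% of GA. The libraries were made from poly(A) RNA, so these sums cover only the RNA kept by that selection.

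**Figure D3:**
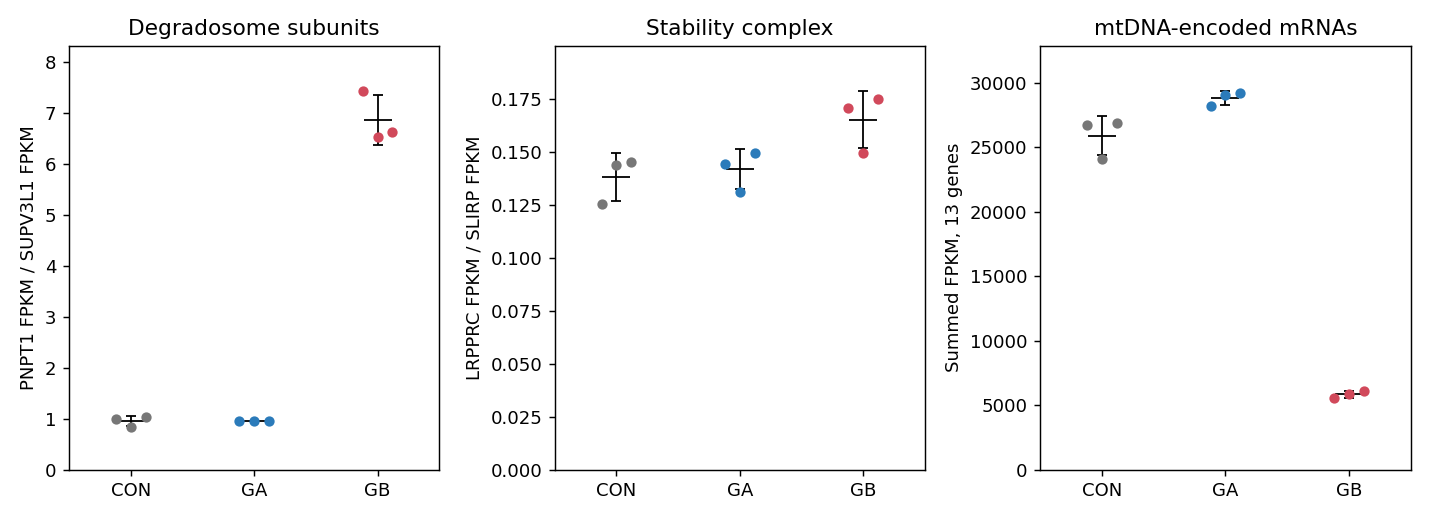
Within-library FPKM ratios of PNPT1 to SUPV3L1 and LRPPRC to SLIRP, and the summed FPKM of the 13 protein-coding mtDNA genes, by library in CON, GA and GB, with group mean ± SD (n = 3) and axes from 0. The PNPT1 to SUPV3L1 ratio is 0.841 to 1.03 in CON and GA and at least 6.54 in GB, and the mtDNA sum is at least 24116 FPKM in CON and GA and at most 6079 FPKM in GB.

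The genes whose profile was nearest to that of PNPT1 were EIF4E, PSME2, ZNFX1, IRF7 and TRIM38, by Euclidean distance of log2(FPKM + 0.5) less its CON mean over the 9 libraries. EIF4E, the mRNA cap-binding translation factor, was nearest at a distance of 0.20. It rose from 189 ± 16.1 FPKM in CON to 1267 ± 33.2 FPKM in GB (SD, n = 3), with a log2FC of 2.75 (SE 0.06) in GB vs. CON. PSME2, a proteasome activator subunit, had a distance of 0.31 and a log2FC of 2.60 (SE 0.10). ZNFX1, an RNA helicase, and IRF7, an interferon regulatory factor, both had a distance of 0.33, with log2FC of 2.79 (SE 0.05) and 2.59 (SE 0.09). TRIM38, a ubiquitin ligase, had a distance of 0.35 and a log2FC of 2.74 (SE 0.07). The distance rests on the same libraries as the fold changes and is a description of these data.

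Around the 10 genes stand 82 other genes of mitochondrial RNA and DNA metabolism in the table, of which 79 were tested. In GB vs. CON, 1 of the 79 was a DEG (4.01% of all tested genes were), 13 were higher by adjusted p (16.2%) and 3 were lower (17.3%), with a median log2FC of 0.07. In GB vs. GA, 1 was a DEG (3.64%), 3 were higher (9.87%) and 9 were lower (19.2%), with a median of -0.02. The 13 higher genes in GB vs. CON were near the share of all tested genes, and the other directional counts were below it. These lists too were drawn up with earlier results of these data known. Their counts, and the adjusted p of single genes given below, are therefore a description. The split of directions depended on the scaling, with 11 higher and 10 lower in GB vs. CON after quantile normalization, and in GB vs. GA with 9 higher and 6 lower under median-of-ratios factors, 6 and 7 after rescaling to TPM and 6 and 8 after quantile normalization. With the GC covariate the counts in GB vs. CON fell to 1 higher and 1 lower, with no share of all tested genes taken in that fit. In GA vs. CON, limma called 0 of the 79 by adjusted p (0.246% of all tested genes were higher and 0.207% lower). An unadjusted p under 0.05 in limma was found for 19. The share of all tested genes at that cut was not taken, so nothing is read from this count. The median log2FC of all tested genes in GA vs. CON was itself above 0, at 0.06, and was 0.003 with median-of-ratios factors.

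The 1 DEG of these genes was CMPK2, a mitochondrial nucleotide kinase that supplies pyrimidine precursors for mtDNA synthesis. CMPK2 averaged 3.27 ± 0.448 FPKM in CON, 2.61 ± 0.316 in GA and 272 ± 20.9 in GB (SD, n = 3). Its log2FC was 6.18 (SE 0.11) in GB vs. CON and 6.46 (SE 0.11) in GB vs. GA, with limma Benjamini-Hochberg adjusted p of 3.6e-10 and 2.7e-10. Of the 10 nucleotide supply genes tested, SLC25A36 and AK4 were also higher in GB vs. CON, and SUCLA2, a succinyl-CoA ligase subunit, was lower in both comparisons, with log2FC of -0.20 (SE 0.06, adjusted p = 0.0264 by limma) and -0.35 (SE 0.06, adjusted p = 0.00169 by limma).

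Among the 8 nucleases and related decay factors, PDE12 was higher and YBEY lower in both comparisons with GB. PDE12, which removes poly(A) tails from mitochondrial mRNAs, averaged 22.6 ± 1.64 FPKM in CON, 23.6 ± 0.446 in GA and 32.2 ± 1.44 in GB (SD, n = 3). Its log2FC was 0.50 (SE 0.06, adjusted p = 0.00038 by limma) in GB vs. CON and 0.44 (SE 0.06, adjusted p = 0.000924 by limma) in GB vs. GA. YBEY, an endoribonuclease of mitochondrial ribosome maturation, had log2FC of -0.27 (SE 0.08, adjusted p = 0.0256 by limma) and -0.47 (SE 0.08, adjusted p = 0.00215 by limma). REXO2, an oligoribonuclease that clears the short products of decay, was lower in GB vs. GA, at 224 ± 10.8 FPKM in GB and 257 ± 18.0 in GA (SD, n = 3).

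The RNA modification genes included the largest fall of the set in GB vs. CON. TRMU, which thiolates mitochondrial tRNAs, averaged 51.6 ± 2.09 FPKM in CON, 54.6 ± 1.19 in GA and 38.6 ± 1.72 in GB (SD, n = 3), with log2FC of -0.41 (SE 0.05, adjusted p = 0.00034 by limma) and -0.49 (SE 0.05, adjusted p = 0.000122 by limma). The tRNA methyltransferase TRMT5 was higher in GB vs. CON, with a log2FC of 0.50 (SE 0.08, adjusted p = 0.00101 by limma), and had 0.16 (SE 0.08, adjusted p = 0.140 by limma) in GB vs. GA. Of the 15 tested modification genes, 3 were higher and 1 lower in GB vs. CON, and 0 were higher and 1 lower in GB vs. GA, to be read beside the same shares of all tested genes (16.2% and 17.3%, then 9.87% and 19.2%). The GB vs. CON calls of PDE12, TRMT5, PTCD3, YBEY and SUCLA2 were lost with the GC covariate, and their GB vs. GA calls, where they had one, were not.

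Of the 7 other transcription genes, 1 passed in GB vs. CON, namely TEFM, the elongation factor of POLRMT, with a log2FC of 0.38 (SE 0.09, adjusted p = 0.00869 by limma), and 0 passed in GB vs. GA. Of the 14 RNA granule genes, PTCD3, a ribosome-associated protein, was higher in both comparisons, with log2FC of 0.41 (SE 0.06, adjusted p = 0.000767 by limma) and 0.27 (SE 0.06, adjusted p = 0.00954 by limma). FASTKD1 was lower in GB vs. GA, with a log2FC of -0.49 (SE 0.10, adjusted p = 0.00521 by limma). Of the 7 tested processing genes, 3 were higher in GB vs. CON, and 1, TRNT1, was lower in GB vs. GA. The 3 were TRMT10C, a subunit of mitochondrial RNase P, KIAA0391 and PTCD2. In GA vs. CON, where 0 of the 7 passed, their log2FC were 0.40, 0.42 and 0.22 in that order. In GB vs. GA they were -0.07, -0.03 and 0.14. The counts of this paragraph are to be read beside the shares of all tested genes given above. Of the 10 replication genes, DNA2 was higher in GB vs. CON and SSBP1, the mitochondrial single-stranded DNA-binding protein, was lower in GB vs. GA.

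Single libraries decided several of these calls. The GB vs. CON call of YBEY was lost without CON3 or GB3, that of SUCLA2 without CON2, CON3 or GB1, that of AK4 without CON1, GA3 or any 1 of the GB libraries, and that of TRMT10C without CON1, CON2, GA1, GA2, GB1 or GB3. The GB vs. GA call of REXO2 was lost without CON3, GA2, GA3, GB1 or GB3, and that of TRNT1 without any 1 library other than CON2 or GA3. CMPK2 kept its call in both comparisons under all 21 alternatives, and TRMU, PDE12, PTCD3, YBEY, SUCLA2, FASTKD1 and SSBP1 kept theirs in GB vs. GA.

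None of the 8 tested regulators of mitochondrial biogenesis passed in GB vs. CON. NRF1 and GABPA, transcription factors of nuclear genes for mitochondrial proteins, were lower in GB vs. GA, with log2FC of -0.36 (SE 0.09, adjusted p = 0.013 by limma) and -0.26 (SE 0.07, adjusted p = 0.0175 by limma). The GABPA call was lost without GA2, GB1 or GB2, and the NRF1 call without GA2. PPARGC1A, the coactivator PGC-1alpha, averaged 1.59 ± 0.207 FPKM in CON and 1.51 ± 0.148 in GA (SD, n = 3), and its log2FC was -0.14 (SE 0.16, adjusted p = 0.538 by limma) in GB vs. CON.

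**Figure D4:**
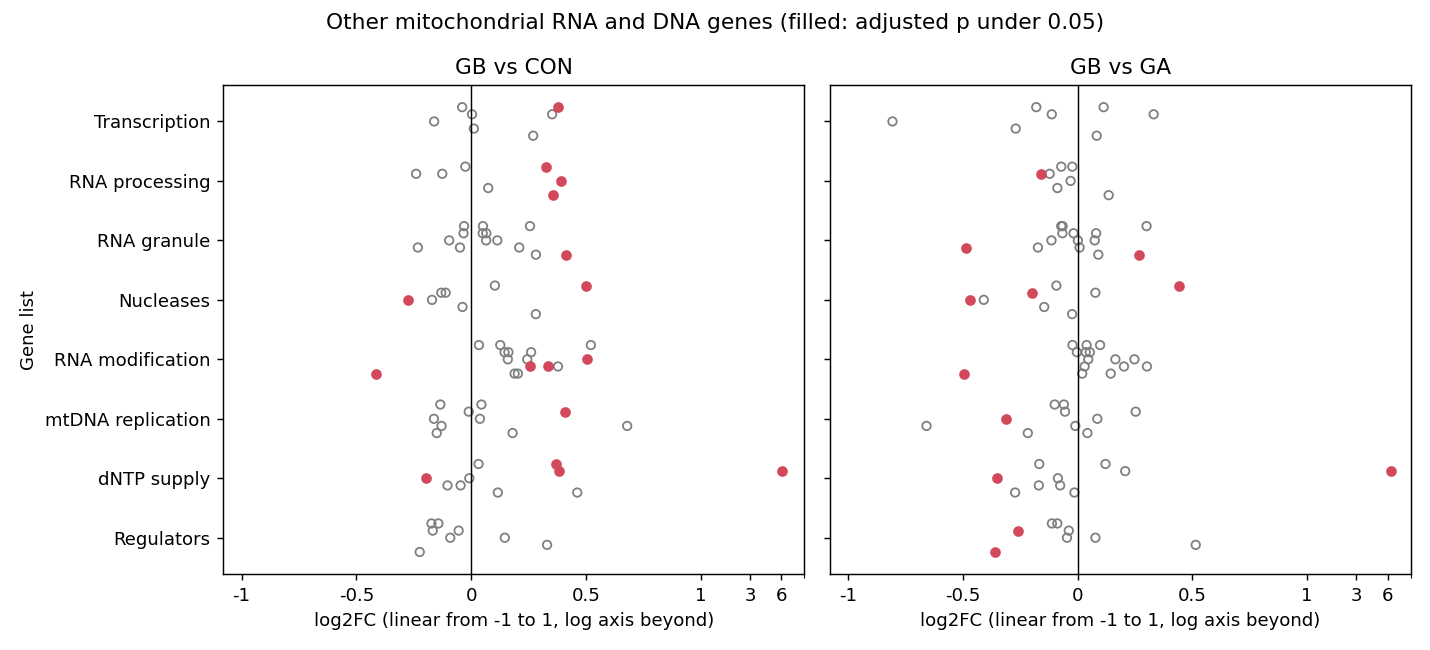
log2FC (on the log2(FPKM + 0.5) scale) of the 79 other tested mitochondrial RNA and DNA genes in both comparisons with GB, grouped by functional list on the vertical axis. Filled points have an adjusted p under 0.05, and the horizontal axis is linear from -1 to 1 and logarithmic beyond. CMPK2 stands apart at 6.18 and 6.46, and all other genes lie between -0.81 and 0.68.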

How the data were processed

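Per the labels and the study's methods, the authors trimmed reads with fastp 0.21.0, removed rRNA reads with Bowtie2 2.33, aligned the rest to ARS-UCD1.2 with HISAT2 2.2.1 and counted genes with RSEM 1.3.3. The authors deposited FPKM per gene and library, to 2 decimals. The table holds FPKM and no read counts, so the number of reads behind each value, and a counting interval, are not given. The read totals of each library in the study's sequencing statistics were not used here.

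Values were analysed as log2(FPKM + 0.5) with limma 3.58.1 in R 4.3.3, with a variance trend, over 9 libraries and 12578 genes (mean FPKM at or above 0.5), with p-values adjusted over all of them by Benjamini-Hochberg. The script was tested on simulated data. With 3 against 3 libraries an exact permutation test cannot give a p under 0.1. Figures used Python 3.11.15 and matplotlib 3.10.9. Alternatives changed the pseudocount, filter, scaling, trend, samples, replicate block, GC covariate (from the study's sequencing statistics) and each library in turn.

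The members, gene lists and tests were chosen with earlier results of these data known. Named genes were all 10 members, DEGs of the other lists, in each comparison the 3 highest and 3 lowest log2FC at adjusted p under 0.05, and the 5 profiles nearest to each member DEG. TEFM, TRMT10C, KIAA0391, PTCD2, TRNT1, DNA2, SSBP1, REXO2, SLC25A36, AK4, NRF1, GABPA, PPARGC1A, TFB1M and POLG2 were named outside that rule. MRM1, MRM3 and ESRRG fell under the filter, and TYMP and the symbol PRORP were not analysed here. The gene of the symbol PRORP was analysed under its other symbol, KIAA0391. The planned promoter motif search was not run, since no promoter sequences were used here. A RefSeq gene table of ARS-UCD2.0 gave gene order only.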

Additional observations from a re-analysis of the deposited data

How the results depend on the processing

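The 6 counts in each of 3 comparisons were recomputed under 21 alternatives, and 356 of the 378 values stayed within 1.5 times the reported count. That total includes the GA vs. CON counts, all 0, and the DEG counts, which rest on PNPT1 and CMPK2. It therefore says little of the directional counts with GB, which moved as given below. The log2FC of PNPT1 ranged from 2.37 to 2.72 in GB vs. CON and from 2.52 to 2.62 in GB vs. GA. In GB vs. CON, the 4 members that were higher became 1 with the GC covariate and 1 with GC and the replicate block, where SLIRP replaced TFB2M as the 1 lower, and the 1 lower became 2 under quantile normalization. Leaving out 1 library gave 2 to 4 higher, with 2 without GB3. Of the other genes in GB vs. CON, the 13 higher became 1 with the GC covariate and 1 with GC and the block, and 10 to 15 without 1 library. The 3 lower became 10 under quantile normalization, 5 with the replicate block, 1 with GC and 0 with GC and the block, and 1 to 5 without 1 library (5 without CON1, 1 without CON3). In GB vs. GA, the 2 lower members became 1 with median-of-ratios factors, and 1 to 2 without 1 library (1 without GA2). Of the other genes, the 3 higher became 6 after rescaling to TPM, 9 with median-of-ratios factors, 6 under quantile normalization, 6 with only the 2 groups fitted and 5 with GC, and 3 to 6 without 1 library (6 without CON2, 5 without GA3). The DEG count was 1 to 2 without 1 library, where MTERF2 joined CMPK2 without GA3. All GA vs. CON counts were 0 throughout.

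The replicate block left the member counts at 4 higher and 1 lower in GB vs. CON and 3 higher and 2 lower in GB vs. GA. Same-numbered libraries had correlations of -0.03 to 0.08, so no effect shared by them was seen. Whether same-numbered dishes were handled together is not given, and these correlations cannot decide it. The cause of these shifts was not tested. The 2-decimal FPKM values limit what can be said of genes near 0.5 FPKM.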

Other observations

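The neighbours of the 10 genes were examined after the data had been seen. In the RefSeq order of protein-coding genes of ARS-UCD2.0, with other genes skipped, the 10 genes had 20 direct neighbours, of which 13 were tested. Of the 13, 0 had a |log2FC| above 1 with an adjusted p under 0.05 in limma in either comparison with GB. The share of all tested genes was 4.01% with CON as the reference and 3.64% with GA. With shares this small, 0 of 13 does not show that the neighbours were unaffected. By adjusted p alone, 16.2% of all tested genes were higher and 17.3% lower against CON, while 9.87% and 19.2% were against GA. The neighbours named below by adjusted p are to be read beside these shares. EFEMP1, next to PNPT1, had a log2FC of -0.37 (SE 0.30, adjusted p = 0.372 by limma) in GB vs. CON and -0.17 (SE 0.30, adjusted p = 0.706 by limma) in GB vs. GA. By adjusted p alone, ALKBH1, next to SLIRP, was higher in both comparisons, with log2FC of 0.44 (SE 0.12, adjusted p = 0.0219 by limma) and 0.48 (SE 0.12, adjusted p = 0.0162 by limma), while the SLIRP libraries overlapped between the groups. JCAD, next to MTPAP, was lower in both, with log2FC of -0.33 (SE 0.07, adjusted p = 0.00612 by limma) and -0.35 (SE 0.07, adjusted p = 0.00494 by limma), while MTPAP was higher. In GB vs. CON, FGF22, next to POLRMT, was lower, with a log2FC of -0.75 (SE 0.24, adjusted p = 0.0374 by limma), and FANCI, next to POLG, was higher, with 0.25 (SE 0.06, adjusted p = 0.0143 by limma). In GB vs. GA their log2FC were -0.64 (SE 0.24, adjusted p = 0.0757 by limma) and 0.07 (SE 0.06, adjusted p = 0.434 by limma).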
